A study of Mus musculus with 17 samples.

Results

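The 10 genes described here encode proteins that build, untangle or coat the mitotic chromosome and the nuclear envelope that is taken down around it: Top2a, Hmgb2, Smc2, Smc4, Ncapd2, Ncapg, Ncaph, Mki67, Lmnb1 and Cdca2. They were chosen by name for that function, with earlier results of these data known. Counts set beside shares of all genes are therefore descriptions. The genes are 10 of 21887 protein-coding genes in the mm10 gene table. An end counted as occupied if at least 1 peak summit was no more than 500 bp from it, on either side of the gene. CUT&RUN, in which an antibody brings a nuclease to its target on chromatin and the DNA cut free is sequenced, was carried out on urothelium peeled from mouse bladders, about 500000 cells per condition. Stag2 was intact in one genotype (labelled Stag2-WT, called WT below) and deleted in the other (Stag2-KO, called KO), and both were collected 1 week after TMX induction. Antibodies against STAG2 (2 WT and 2 KO libraries), LIN54 (3 WT and 2 KO) and p130 (3 WT and 3 KO) gave 15 peak lists. The libraries are labelled as biological replicates. The driver of recombination, the age of the mice and the number of mice behind a library are not given in the sources used here.

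Cohesin, the ring complex that holds sister chromatids together and forms chromatin loops, has STAG2 as one of its subunits. LIN54 is the DNA-binding subunit of MuvB, and p130 is a retinoblastoma-family pocket protein. Together with an E2F factor they form DREAM, which keeps cell cycle genes silent in quiescence, and genes expressed late in the cell cycle are known to carry a CHR element that LIN54 binds. Condensin compacts chromosomes for mitosis, topoisomerase II untangles the sister DNA molecules, and the adult urothelium is a tissue that divides rarely.

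Depth and quality differed between the libraries. The lists held 286079 to 539191 peaks with p up to 0.05, of which 316 to 25859 had q of at most 0.01. The background coverage recovered from the lists was 1.28 to 2.03 fragments per base. Batch 1 held every STAG2 and LIN54 library, batch 2 only p130-WT replicate 1, and batch 3 the remaining 5 p130 libraries, so p130 and its batches cannot be told apart from the other antibodies and theirs, while STAG2 and LIN54 share a batch. p130-WT replicate 1 had the most peaks and 5.98% of them on the X chromosome. The X share was 0.440% and 0.465% in the other p130-WT libraries and 0.310% to 0.330% in p130-KO. The X share was 3.16% to 5.09% in LIN54-WT against 0.486% to 0.744% in LIN54-KO, and 1.00% to 2.42% in STAG2-WT against 0.259% to 0.436% in STAG2-KO. Stag2 itself, an X-linked gene, had an end peak at q 0.01 in 1 of the 15 libraries, STAG2-WT replicate 2, and a peak at the gene does not check its deletion. Of the luminal urothelial marker genes, Upk1a, Upk2, Krt8 and Ppard (4 of 10) were occupied at q 0.01 in both STAG2-WT libraries, against 12.6% of all genes. Upk2 alone (1 of 10) was so in both STAG2-KO libraries, against 1.90%, and in both LIN54-KO libraries, against 15.8%. In all 3 LIN54-WT libraries it was 0 of 10, against 4.71%. Of the basal urothelial genes, 1 of 5 reached q 0.01 in each STAG2-WT library, against 29.3% and 17.4% of all genes. Of the markers of other cell types, the immune gene Cd68 reached q 0.01 in both LIN54-KO libraries, 1 of 6 fibroblast genes in each STAG2-WT library and up to 3 of 6 in a LIN54-KO library, and no endothelial gene (of 5) in any library. No marker gene of any list reached q 0.01 in a p130 library, where 1.07% to 3.23% of all genes did. Occupancy is not expression, so these values do not measure cell types.

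The promoters of 7 of the 10 genes were found in the RefSeq promoter table (build GRCm38.p6, the assembly of mm10). The 250 bases before the start of 6 of them are shown, because these stretches hold most of the summits described below and because 5 hold the CHR letters and 1, Ncaph, does not. Each reads 5′ to 3′ along the gene. Capitals mark TTTGAA or TTCGAA, the CHR letters searched, or TTCAAA where TTTGAA lies on the other strand.
Top2a, chr11:99024190-99024439, minus strand: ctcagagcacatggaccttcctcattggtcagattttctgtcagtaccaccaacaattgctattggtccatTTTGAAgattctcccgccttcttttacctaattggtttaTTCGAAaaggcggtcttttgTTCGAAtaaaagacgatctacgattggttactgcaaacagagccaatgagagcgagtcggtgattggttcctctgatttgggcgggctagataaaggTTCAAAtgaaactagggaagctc
Hmgb2, chr8:57511593-57511842, plus strand: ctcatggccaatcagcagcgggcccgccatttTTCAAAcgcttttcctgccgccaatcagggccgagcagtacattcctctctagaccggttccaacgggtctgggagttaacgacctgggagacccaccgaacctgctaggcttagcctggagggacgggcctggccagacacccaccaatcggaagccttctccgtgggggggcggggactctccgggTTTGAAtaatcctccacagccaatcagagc
Smc2, chr4:52438971-52439220, plus strand: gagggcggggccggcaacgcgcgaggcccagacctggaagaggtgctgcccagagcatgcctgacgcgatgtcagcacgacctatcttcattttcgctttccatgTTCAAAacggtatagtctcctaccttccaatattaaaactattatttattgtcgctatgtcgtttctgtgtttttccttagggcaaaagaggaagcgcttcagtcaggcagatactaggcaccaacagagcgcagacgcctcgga
Ncapd2, chr6:125191587-125191836, minus strand: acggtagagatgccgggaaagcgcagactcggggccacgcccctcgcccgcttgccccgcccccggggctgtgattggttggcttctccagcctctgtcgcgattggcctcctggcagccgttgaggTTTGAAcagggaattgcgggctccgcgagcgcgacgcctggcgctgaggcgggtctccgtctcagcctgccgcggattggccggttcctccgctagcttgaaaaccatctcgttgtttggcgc
Mki67, chr7:135716380-135716629, minus strand: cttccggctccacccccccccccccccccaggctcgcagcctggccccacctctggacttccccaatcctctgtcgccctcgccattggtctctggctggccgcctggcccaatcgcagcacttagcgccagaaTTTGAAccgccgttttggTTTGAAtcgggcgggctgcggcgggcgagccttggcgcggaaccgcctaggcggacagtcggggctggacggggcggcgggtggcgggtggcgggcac
Ncaph, chr2:127133955-127134204, minus strand: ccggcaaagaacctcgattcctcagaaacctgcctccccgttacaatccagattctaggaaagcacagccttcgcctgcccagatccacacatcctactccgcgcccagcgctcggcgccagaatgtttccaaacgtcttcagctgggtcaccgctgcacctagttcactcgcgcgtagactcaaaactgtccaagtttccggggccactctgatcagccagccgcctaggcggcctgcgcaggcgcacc

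The Top2a promoter held 4 CHR matches, starting 179, 140, 120 and 23 bases before the start, and 6 CCAAT boxes. The Mki67 promoter held matches starting 116 and 98 bases upstream, Smc2 1 at 145 bases, Ncapd2 1 at 123 bases and Hmgb2 matches at 218 and 30 bases. Over the whole 300-base promoter entries (250 bases before to 50 after the start, both strands), 6 of the 7 genes had a CHR match, against 19.2% of all 32851 promoters. CCAAT was found in the same number, 6 of 7, against 37.4%. An E2F match (TTTCCCGC, TTTCGCGC, TTTGCCGC or TTTGGCGC) was found in Ncapd2 and Ncapg, against 2.26% of all promoters. Ncaph had no match to any of the motifs searched. No match to one motif overlapped a match to another, and a match is a description of the sequence and not a measured site.

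Most of the 10 gene ends carried a peak of each antibody. At q 0.01 the share of all genes was lowest for p130, so ratios of these shares do not rank the antibodies. In the deposited lists, 9 of the 10 genes were occupied in all 3 p130-WT libraries, against 14.3% of all genes, and 8 in all 3 p130-KO libraries, against 8.88%. At q 0.01 these counts were 4, against 0.758%, and 5, against 0.681%. With LIN54, 8 genes were occupied in every WT library, against 23.8% of all genes, and all 10 in both KO libraries, against 35.5%. At q 0.01 the LIN54 counts were 4, against 4.71%, and 8, against 15.8%. With the STAG2 antibody, 8 genes were occupied in both WT libraries, against 35.0%, and 5 in both KO libraries, against 25.5%. At q 0.01 they were 5, against 12.6%, and 1, against 1.90%.

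Top2a, Hmgb2, Ncapd2 and Cdca2 were occupied in all 15 libraries, as were 1.92% of all genes. Cdca2 was the only one of the 10 genes to reach q 0.01 in all 15, against 0.142% of all genes. These include the STAG2-KO libraries, from urothelium in which Stag2 was deleted. Whether peaks of the STAG2 antibody in KO mark STAG2 protein was not tested, here or at the other genes. Across the 11 LIN54 and p130 libraries, 8 of the 10 genes, all but Ncapg and Ncaph, were occupied throughout, against 2.83% of all genes, and Top2a, Hmgb2 and Cdca2 reached q 0.01 in every one, against 0.375%. Ncaph reached q 0.01 in 1 of the 15 libraries, Mki67 in 3 and Ncapg in 4. In STAG2-WT replicate 1, where Top2a was at −log10 q 3.28, Ncaph (6.85) and Ncapg (4.62) were higher, as the map of −log10 q by gene and library shows.

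**Figure D1:**
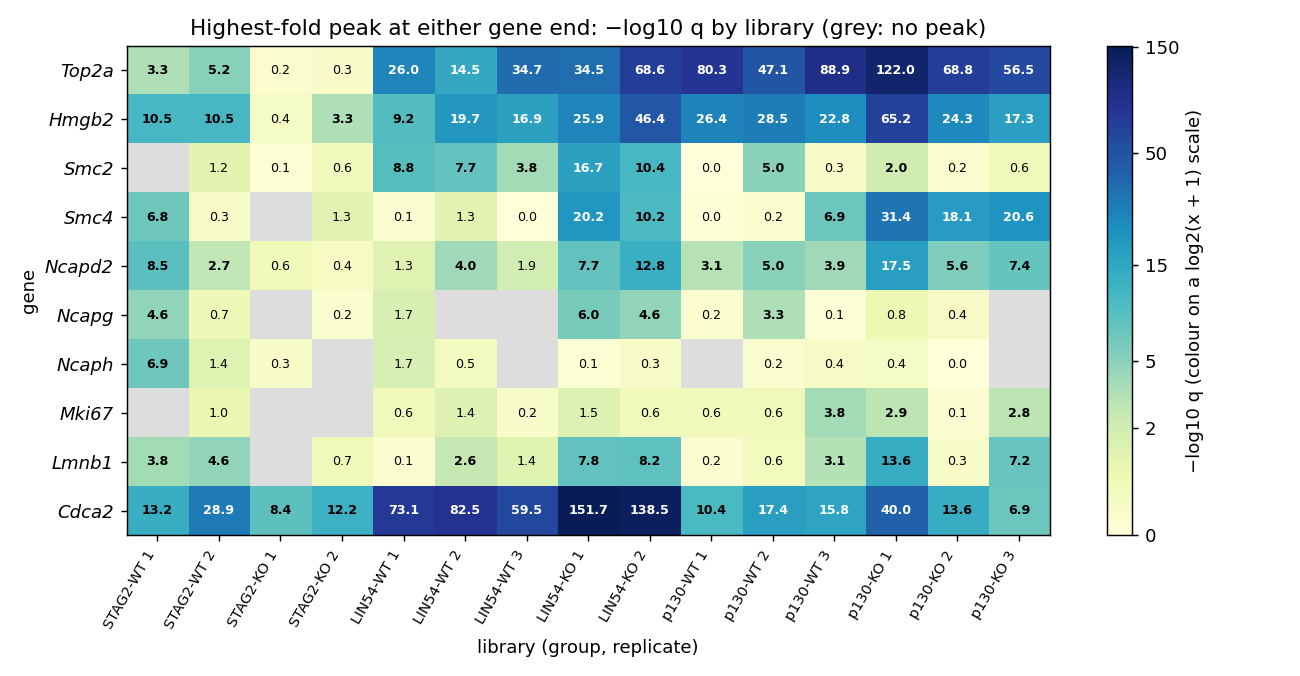
The −log10 q of the peak with the highest fold within 500 bp of either gene end, for each of the 10 genes (vertical axis) in each of the 15 libraries (horizontal axis), with grey where no peak was listed. Cdca2 is at or above 6.95 in every library, whereas Ncaph passes 2 in 1 library, STAG2-WT replicate 1.

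Fold is the authors' enrichment of fragments at the summit over background, and p and q are theirs too. Whether that background came from the same library or from a control is not given. These values describe and rank peaks within a library. Each gene was therefore also given a rank among the 21887 genes of each library by its highest end fold, where 1 is the highest. Genes with no peak share the last rank. By definition 0.457% of genes fall within the first 100 ranks (0.452% to 0.461% where ties meet the limit). Between 2 and 6 of the 10 genes did so in each p130 library, 1 or 2 in each LIN54 library and 0 or 1 in each STAG2 library. The median rank of the 10 genes was 89.5 to 1475.5 in p130 libraries, 1268.5 to 2450.5 in LIN54 libraries and 2419 to 5326.75 in STAG2 libraries, beside 10884.5 to 21887 for the median over all genes. The largest p130 median was that of WT replicate 1, the library of batch 2.

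Top2a encodes topoisomerase IIα, which passes DNA strands through one another so that sister chromatids can part. The gene lies at chr11:98992947-99024199, and its start is at the higher end. Its p130 fold was 15.8, 12.9 and 18.5 in WT replicates 1 to 3 (15.7 ± 2.77, SD, n = 3) and 26.7, 17.6 and 16.2 in KO (20.2 ± 5.73, n = 3). These peaks held 65 to 113 fragments at the summit, and Top2a stood at ranks 4 to 10 in all 6 libraries. With LIN54, the fold was 9.12, 7.09 and 10.8 in WT (8.99 ± 1.84) and 12.1 and 19.4 in KO (15.7 ± 5.16, n = 2), at ranks 54 to 689. The STAG2 antibody gave 3.45 and 4.65 in WT and 2.62 and 2.14 in KO. Both STAG2-WT values exceeded both KO values, as at 54.5% of genes occupied in all 4 STAG2 libraries, and neither KO peak reached q 0.01. The peak of STAG2-KO replicate 1 lay at the other end of the gene, so the STAG2-KO signal at the promoter itself rested on 1 library.

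Hmgb2, at chr8:57511843-57515999, encodes an HMG-box protein that bends DNA. With p130, its fold was 8.64, 9.23 and 8.22 in WT (8.70 ± 0.508) and 15.7, 7.75 and 7.03 in KO (10.2 ± 4.83), at ranks 24 to 63. The KO values lay on both sides of the WT values. With LIN54, it was 5.25, 7.73 and 6.96 in WT and 8.60 and 11.6 in KO. The groups did not overlap by fold, with KO above, as at 46.1% of genes occupied in all 5 LIN54 libraries. Their ranks (291 to 1085.5 and 441 to 979) did overlap. STAG2 folds at Hmgb2 were 5.09 and 5.53 in WT and 2.56 and 3.33 in KO. The STAG2 signal at Hmgb2 was lower in KO by both fold and rank. Of genes occupied in every STAG2 library, 54.5% were so by fold and 19.9% by rank. At Hmgb2, STAG2-KO replicate 2 still gave q of at most 0.01.

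Smc2 and Smc4 encode the ATPase core shared by both condensin complexes. Smc2 lies at chr4:52439221-52488365, with the end of the noncoding gene Smc2os 257 bp away. Its LIN54 fold was 6.84, 6.52 and 4.94 in WT (6.10 ± 1.02) and 8.97 and 7.26 in KO (8.12 ± 1.21), and it reached q 0.01 in all 5 LIN54 libraries. With p130 it was 1.74, 5.72 and 3.16 in WT and 4.06, 2.72 and 3.37 in KO, and q 0.01 was reached in WT replicate 2 and KO replicate 1. The p130-WT values spread more widely than the KO values and enclosed them. The STAG2 antibody gave no Smc2 peak in WT replicate 1, 3.20 in WT replicate 2, and 2.37 and 2.71 in KO, none of them at q 0.01. Smc2 thus had firm LIN54 peaks in both genotypes and weak STAG2 peaks of 7 to 9 fragments.

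Smc4 was the one gene of the 10 whose folds separated WT from KO libraries with both LIN54 and p130. KO folds lay above all WT folds at 17.4% of all genes with LIN54 and at 1.73% with p130. Among genes occupied in every library of the antibody these shares were 46.1% and 6.44%. The share separating with both antibodies was not counted, and the related gene Ncapg2 also did so. The gene lies at chr3:69004738-69034623, and the end of Ift80, an intraflagellar transport gene, is 58 bp from its lower end, so a peak there cannot be assigned to either gene. The p130 fold was 2.28, 2.35 and 5.41 in WT (3.35 ± 1.79) and 14.3, 9.86 and 10.9 in KO (11.7 ± 2.33). Every KO value exceeded every WT value. The KO peaks held 29 to 37 fragments at ranks 17.5 to 31.5, and the WT peaks held 5 to 22 at ranks 181 to 6713.5. The LIN54 fold was 2.10, 2.80 and 1.86 in WT (2.25 ± 0.486) and 10.7 and 7.35 in KO (9.03 ± 2.39), again without overlap. At q 0.01 Smc4 was occupied in 0 of 3 LIN54-WT and 2 of 2 LIN54-KO libraries, and in 1 of 3 p130-WT and 3 of 3 p130-KO libraries. For the difference in mean rank the two-sided exact permutation p over libraries was 0.1 with either antibody, the smallest these designs allow. Adjusted over all genes by Benjamini-Hochberg it was 1. Within batch 3 the p130 values still did not overlap. At a window of 250 bp the LIN54 groups did overlap, since the summit of KO replicate 2 lay 316 bp outside the gene. STAG2 folds at Smc4 were 4.94 and 2.55 in WT, and in KO it had no peak in replicate 1 and 3.31 in replicate 2. The peaks of p130-WT replicate 1 and STAG2-WT replicate 2 lay at the other end of the gene, 669 bp from Trim59.

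The other condensin genes encode the non-SMC subunits of condensin I. Ncapd2, a HEAT-repeat subunit at chr6:125168007-125192100, had p130 folds of 4.95, 5.67 and 5.23 in WT (5.28 ± 0.366) and 9.53, 5.19 and 5.77 in KO (6.83 ± 2.36). All 6 p130 libraries reached q 0.01, at ranks 157 to 203 in WT and 81 to 128.5 in KO, which did not overlap, while the folds did. KO ranks stood above all WT ranks at 12.1% of genes occupied in all 6 p130 libraries. Its LIN54 fold was 3.58, 4.95 and 4.15 in WT and 6.24 and 8.15 in KO, with q 0.01 reached in 1 of 3 WT and both KO libraries. The STAG2 fold was 6.33 and 4.23 in WT and 3.30 and 2.53 in KO, with both WT libraries and neither KO library at q 0.01. Ncapd2 therefore separated by fold with LIN54, higher in KO, and with STAG2, lower in KO. Genes occupied in every library of the antibody did so in 46.1% of cases with LIN54 and 54.5% with STAG2. Its end is 100 bp from that of Mrpl51, a mitochondrial ribosomal protein gene, so a peak there cannot be assigned to either gene. The RefSeq start of Ncapd2 lies 514 bp inside the gene end.

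Ncapg, the other HEAT-repeat subunit, lies at chr5:45669891-45700547 and was occupied in 11 of the 15 libraries, 4 of them at q 0.01. With p130 its fold was 2.76, 4.96 and 2.33 in WT, and 3.62 and 3.11 in KO replicates 1 and 2, with no peak in replicate 3, and WT replicate 2 reached q 0.01. With LIN54 it was 3.71 in WT replicate 1, unlisted in WT replicates 2 and 3, and 5.61 and 5.08 in KO, both at q 0.01. STAG2 folds were 4.75 (at q 0.01) and 2.92 in WT, unlisted in KO replicate 1 and 2.26 in KO replicate 2. The noncoding gene 1600023N17Rik ends 183 bp away. An absent peak at this depth means that none passed the limit of the list, not that no fragments were present.

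Ncaph encodes the kleisin that closes the condensin I ring and lies at chr2:127103809-127133954. It was the only one of the 10 with no LIN54 or p130 peak at q 0.01 at either gene end. The LIN54 fold was 3.76 and 2.68 in WT replicates 1 and 2, unlisted in replicate 3, and 1.90 and 2.27 in KO. With p130 it was 2.58 and 3.26 in WT replicates 2 and 3, and 3.24 and 1.73 in KO replicates 1 and 2, with no peak in the remaining 2 libraries. The STAG2 fold was 5.70 and 3.46 in WT and 2.86 in KO replicate 1, with no peak in KO replicate 2, and only WT replicate 1 reached q 0.01. An end of the noncoding gene Gm35347 is 1 bp from that end, and one of Gm39922 is 116 bp from the other.

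Mki67 encodes Ki-67, the proliferation marker that coats mitotic chromosomes and keeps them apart. The gene lies at chr7:135689784-135716450. Its p130 fold was 3.59, 3.50 and 5.33 in WT (4.14 ± 1.04) and 4.59, 2.54 and 4.59 in KO (3.91 ± 1.18), with overlapping groups. A peak reached q 0.01 in WT replicate 3 and in KO replicates 1 and 3. The LIN54 fold was 3.10, 3.67 and 2.87 in WT and 3.29 and 2.77 in KO, none at q 0.01. For STAG2, Mki67 had 1 peak, 3.15 in WT replicate 2, among 4 libraries.

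Lmnb1 encodes lamin B1, a filament protein of the nuclear envelope, at chr18:56707813-56753424. Its LIN54 fold was 2.20, 3.72 and 3.28 in WT (3.07 ± 0.781) and 6.29 and 6.59 in KO (6.44 ± 0.210). The groups did not overlap by fold or rank, with KO above. Of genes occupied in all 5 LIN54 libraries, 46.1% did so by fold and 16.3% by rank. The exact permutation p of the rank difference was 0.3, and 1 after adjustment over all genes. With p130 the fold was 2.40, 3.30 and 4.23 in WT and 8.79, 3.13 and 6.51 in KO, where KO replicate 2 fell within the WT range. The STAG2 fold was 3.75 and 4.80 in WT, both at q 0.01, and 2.86 in KO replicate 2, with no peak in KO replicate 1.

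Cdca2 encodes the phosphatase-targeting subunit Repo-Man, which brings protein phosphatase 1 to chromatin as cells leave mitosis. It lies at chr14:67673180-67715841, and an end of Kctd9 lies 245 bp beyond its higher end, so a peak there cannot be assigned to either gene. The LIN54 fold was 15.04, 19.1 and 14.96 in WT (16.4 ± 2.37) and 30.6 and 28.4 in KO (29.5 ± 1.53), with 74 to 132 fragments at the summit. The folds did not overlap, with KO above, as at 46.1% of genes occupied in all 5 LIN54 libraries. The ranks did overlap, at 17.5 to 61.5 in WT and 17.5 to 37.5 in KO. The p130 fold was 5.32, 7.43 and 7.11 in WT and 12.2, 7.03 and 5.17 in KO, and these overlapped. With the STAG2 antibody Cdca2 was at 5.32 and 9.34 in WT and 5.58 and 6.13 in KO. Unlike Top2a and Hmgb2, its STAG2 folds overlapped between the genotypes, and its KO ranks of 93.5 and 226 were both above the WT ranks of 1648.5 and 281.5.

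**Figure D2:**
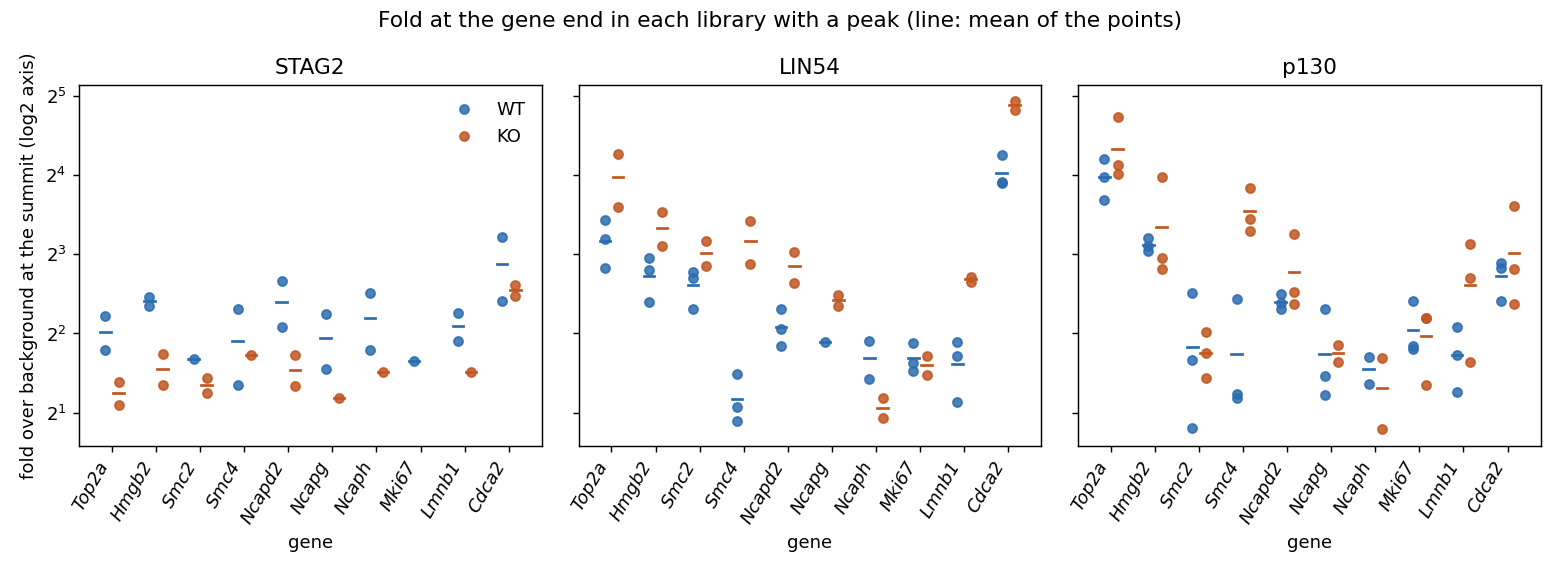
Fold over background at the summit (log2 axis) for each gene in every library with a peak, in a panel for each antibody; points are libraries, blue WT and orange KO, and short lines are means of the points shown. In the p130 panel the 3 KO points of Smc4 (9.86 to 14.3) lie above its 3 WT points (2.28 to 5.41), and in the LIN54 panel Cdca2 is the highest gene in both genotypes.

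Between genotypes, the question was whether the loss of STAG2 moved LIN54 or p130 at these ends. By rank, with p130, the KO libraries stood above all WT libraries at Smc4 and Ncapd2, 2 of 10 genes against 2.56% of all genes, and below them at 0 genes, against 3.74%. Within batch 3 the count above was 3, with Top2a as the third gene. With LIN54 the KO libraries stood above at Smc4 and Lmnb1, against 9.10% of all genes, and below at Smc2 and Mki67, against 4.93%. STAG2 KO libraries stood above at Smc2 and Cdca2, against 9.32%, and below at Hmgb2 and Ncapg, against 13.5%. No gene of the table could pass 0.05 by the exact permutation tests, whose smallest p was 0.333 for STAG2 and 0.1 for LIN54 and p130. The number of genes under 0.05, unadjusted or adjusted, was 0 for each antibody. Among genes occupied in every library of an antibody, the shares with KO above and below WT were 12.1% and 7.52% for p130 (2 and 0 of 8 here), 16.3% and 13.3% for LIN54 (2 and 2 of 8) and 23.6% and 19.9% for STAG2 (1 and 1 of 4). The shares of all genes depend on how genes without a peak are ranked, and those among genes occupied in every library do not. With the mean of the last ranks of each library, KO stood above WT at 27.9% of all genes for p130 and 38.5% for STAG2. Both shares are above the 2 of 10 seen here. The genes on the STAG2 lists depended on a missing peak for Smc2 (WT replicate 1) and Ncapg (KO replicate 1).

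By fold itself, the LIN54 KO libraries lay above every WT library at 8 of the 10 genes, all but Ncaph and Mki67. All genes did so in 17.4% of cases, and among the 4319 genes occupied in all 5 LIN54 libraries the share was 46.1%, beside 7 of 8 of the genes here. The median fold over all occupied genes was 3.25 and 3.31 in LIN54-KO and 2.62 to 2.97 in LIN54-WT, so a higher fold in KO was also the general state of these lists. With the STAG2 antibody, KO lay below WT by fold at 6 of 10 genes, against 23.0% of all genes. Among the 3555 genes occupied in all 4 STAG2 libraries the share was 54.5%, beside 3 of 4 here. With p130, Smc4 was the only one of the 10 with KO above WT by fold, against 1.73% of all genes and 6.44% of the 838 occupied in all 6 libraries. The opposite directions held for 0 of the 10 genes: LIN54 lower in KO, against 2.44% of all genes (2.64% of those occupied throughout), STAG2 higher in KO, against 3.73% (3.18%), and p130 lower in KO, against 4.85% (8.95%). The X share of peaks was lower in every KO library than in every WT library of each antibody, p130 included. Its part in these differences was not tested.

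**Figure D3:**
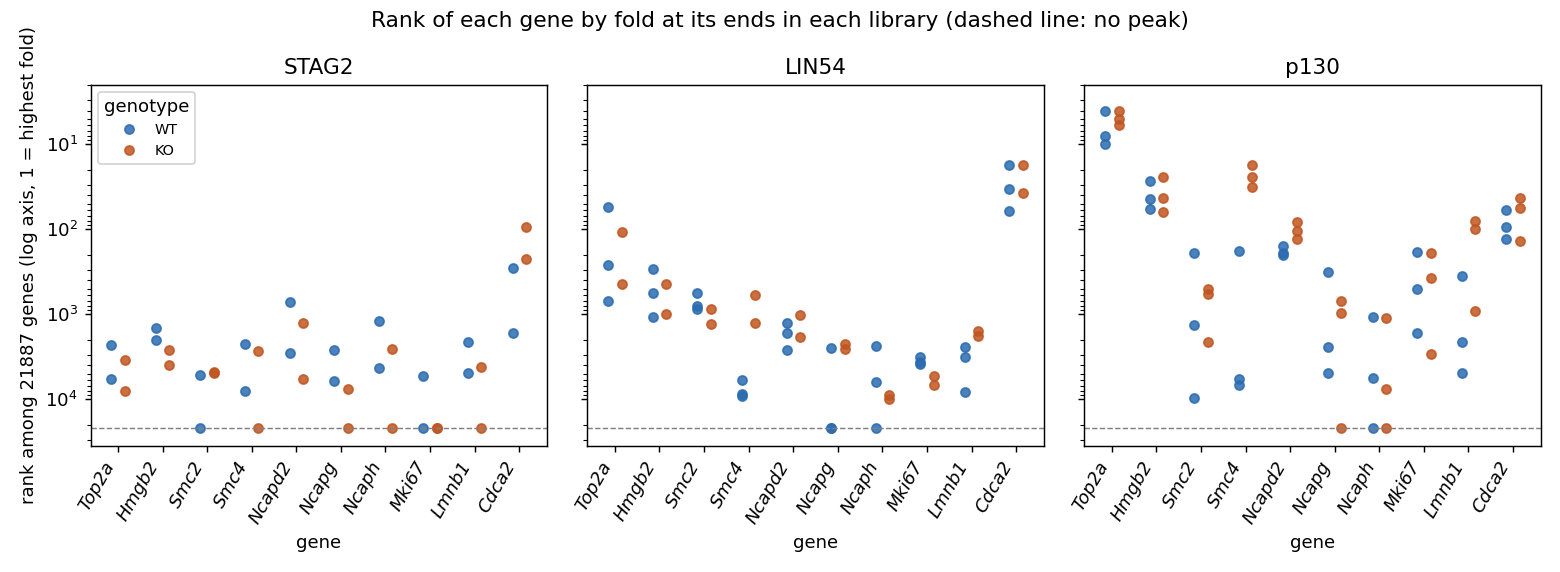
Rank of each gene among 21887 genes by its highest end fold (log axis, 1 at the top), in a panel for each antibody; points are libraries, blue WT and orange KO, and points on the dashed line had no peak. With p130, Top2a holds ranks 4 to 10 in all libraries and the 3 KO points of Smc4 (17.5 to 31.5) lie above its WT points.

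The spread of summits between libraries differed from gene to gene. At Top2a the p130 summits lay 43 to 91 bp outside the gene end and the LIN54 summits 50 to 97 bp, ranges that overlap. Counted from the RefSeq start, they lay 53 to 101 and 60 to 107 bases upstream, between the CHR matches at 120 and 23 bases in the sequence shown. The 3 STAG2 summits at that end lay 115 to 161 bases upstream, beyond all of the p130 and LIN54 summits. At Hmgb2 the LIN54 summits lay 51 to 85 bases upstream of the start and the p130 summits 81 to 151 bases.

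At Mki67 the p130 summits were 87 to 154 bases upstream of the start, and their distance to the middle of the nearest CHR match was 3 to 41 bases. The LIN54 summits there were 98 to 400 bases upstream, of which 4 of 5 lay beyond 300 bases, although none of these peaks reached q 0.01. At Smc2 the LIN54 summits were 8 to 71 bases from the nearest CHR match, and the p130 summits 3 to 29 bases in 5 libraries and 295 bases in p130-WT replicate 1, whose peak had 7 fragments. At Ncapd2 the p130 summits lay 85 to 426 bases upstream of the start and the LIN54 summits 163 to 409 bases, so the position varied more than at Top2a although all 6 p130 peaks reached q 0.01. At Smc4 the LIN54-KO summits, both at q 0.01, were 326 bp apart.

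At Cdca2 the p130 summits stood apart from those of LIN54 and STAG2. The p130 summits lay 41 to 61 bp inside the gene in all 6 libraries. The LIN54 summits lay 2 to 86 bp and the STAG2 summits 37 to 141 bp outside it. The LIN54 and STAG2 positions overlapped each other and not those of p130. At Ncapg the p130 summits were 19 to 123 bp outside the gene in WT and 117 and 148 bp inside it in the KO libraries with a peak, on weak peaks of 7 to 13 fragments. Over the genes with a peak on the same end in every library, the median spread of the summits was 70 bp for p130 (7 genes), 91 bp for LIN54 (8 genes) and 104 bp for STAG2 (3 genes).

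**Figure D4:**
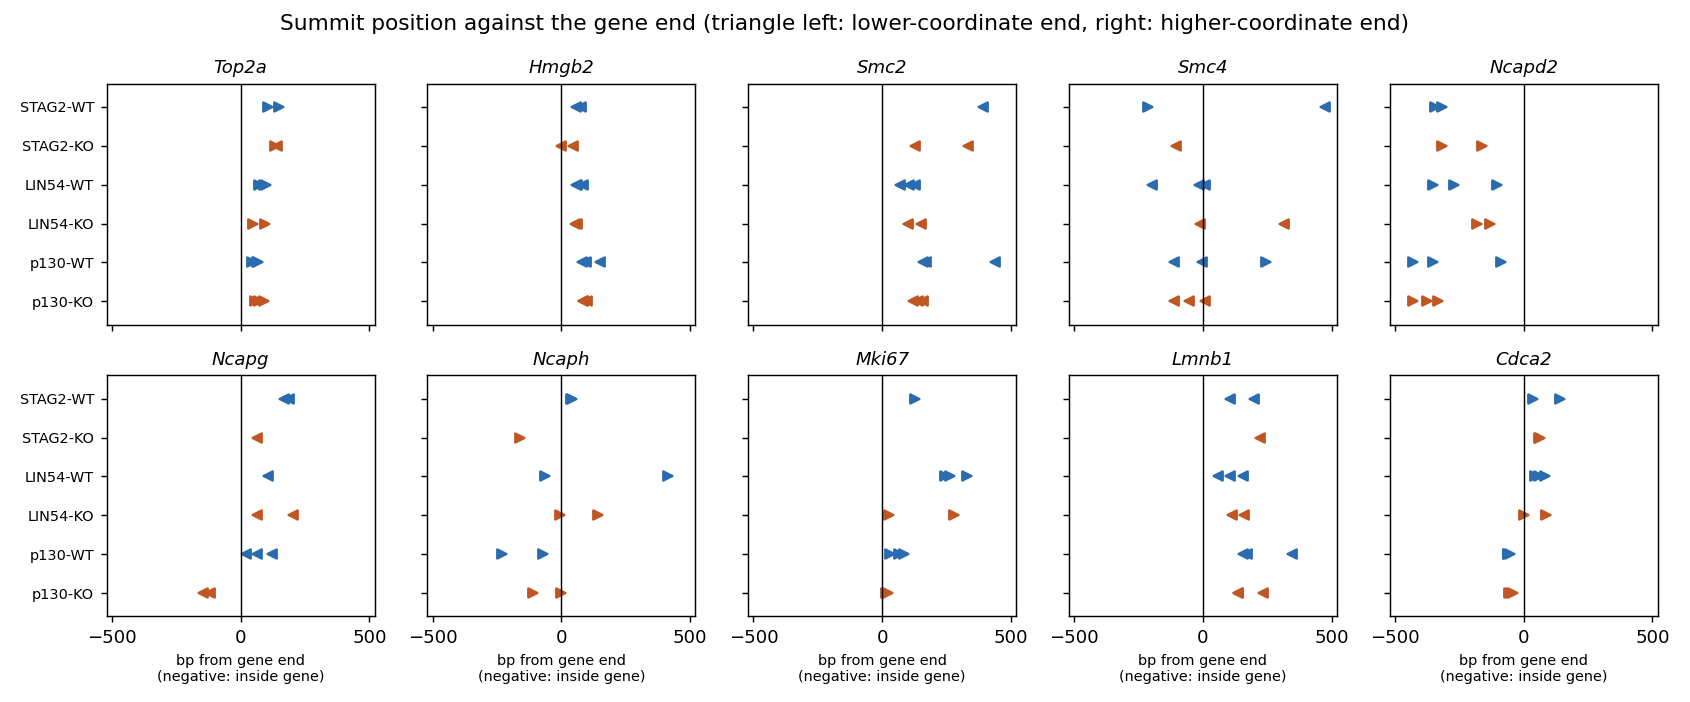
Distance in bp of each library's summit from the gene end (horizontal axis, positive outside and negative inside the gene), in a panel for each gene, by antibody and genotype (vertical axis); triangles point left for the end with the lower coordinate and right for the higher. At Cdca2 the 6 p130 summits sit 41 to 61 bp inside the gene and the LIN54 and STAG2 summits outside it.

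Away from their ends the genes held few strong peaks. Lmnb1 had 3 body summits at q 0.01 in each STAG2-WT library and 2 and 1 in the LIN54-KO libraries. All the other genes had 0 or 1 in any library, and no p130 library had one.

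Related genes that are not among the 10 were listed by function, with earlier results of these data known. They were 18 genes of condensin II, cohesin, the lamina and mitotic chromosomes. Ncapg2, a condensin II subunit, was occupied at q 0.01 in all 6 p130 libraries. Its p130 folds were 9.13 to 14.5 in WT and 14.8 to 18.6 in KO, a narrow gap. KO lay above WT in this way at 1.73% of all genes and 6.44% of the 838 occupied in all 6 libraries. Its LIN54 folds, 4.15 to 5.70 in WT and 6.76 to 11.2 in KO, did not overlap either, against 17.4% of all genes. Among genes occupied in every LIN54 library the share was 46.1%. At q 0.01, Nusap1, a spindle protein, was the other gene occupied in every p130-WT library (2 of 18, against 0.758% of all genes). The chromokinesin gene Kif22 was the other in every p130-KO library (2 of 18, against 0.681%). With LIN54 the counts were 6 of 18 in WT (Ncapg2, Top2b, Lmnb2, Lmna, Kif22 and Akap8), against 4.71% of all genes, and 11 of 18 in KO, against 15.8%, which added Ncapd3, Hmgb1, Lbr, Banf1 and Smc3. For STAG2 they were 9 of 18 in WT, against 12.6%, and 0 of 18 in KO, against 1.90%. Of the paralogs, Top2b, which encodes the isoform also present in nondividing cells, reached q 0.01 in 3 of 3 LIN54-WT and 2 of 2 LIN54-KO libraries and in no p130 library, where Top2a did so in all 6. Lmnb2 and Lmna likewise reached q 0.01 in every LIN54 library and no p130 library. Hmgb1, the paralog of Hmgb2, had a peak in all 15 libraries and reached q 0.01 in 2 of 3 p130-WT and 2 of 3 p130-KO libraries.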

How the data were processed

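CUT&RUN peak lists of 15 libraries were analysed, without the 2 pMNase samples. The submitters' processing notes name bcl2fastq, Bowtie2, MACS2 and build mm10. Versions, settings and the use of a control in peak calling are not given in the sources used here. The deposited fold is a ratio of fragments at the summit to a background, whose source is likewise not given. Further deposited columns hold −log10 p, −log10 q and a score, the authors' −log10 p times a constant as a whole number, which was not used here. Only autosomal, X and Y peaks were used. For each gene the summit with the highest fold within 500 bp of either end was taken, from the deposited list and at q 0.01 (−log10 q of at least 2). The gene table (GRCm38.p6) gives no strand, so both ends were used.

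Fragment counts were recovered from fold and p as whole numbers; all of 2000 summits sampled per library fitted within 0.0002 on the log10 scale. Their precision is that of counting alone (95% Poisson interval, 81.4 to 122 for the 100 fragments of Top2a in p130-WT replicate 1), and PCR duplicates are not accounted for. Ranks were compared between genotypes by two-sided exact permutation over libraries, with Benjamini-Hochberg adjustment over 21887 genes; p-values measure the spread between these libraries. Genes without a peak were all given the last rank. This tie rule was settled after a first run had used the mean of the last ranks of each library, and both results are given in the closing section.

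Members, the 18 related genes and the marker lists were chosen with earlier results of these data known. All 10 members are named, with genes that end within 1000 bp of them and, of the related genes, those at q 0.01 in every library of a group. Alternatives were leaving out each library, blocking on replicate number, batch 3 alone, fold in place of rank, windows of 250 and 1000 bp, q 1e-05 and the 20000 best peaks. The code ran in Python 3.11.15 with SciPy 1.17.1, Matplotlib 3.10.9, NumPy 2.4.6 and pandas 2.3.3, and was tested on simulated data. The promoter table held 7 of the 10 genes.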

Additional observations from a re-analysis of the deposited data

Results flagged for a closer look

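By rank, Smc2 differed in opposite directions with 2 antibodies. With the STAG2 antibody both KO libraries ranked above both WT libraries (KO minus WT mean rank −8702), and with LIN54 both KO libraries ranked below all 3 WT libraries (337.667 places further down). The effects differ by −9039.7 places. The difference itself was not tested. The STAG2 value rests on WT replicate 1, in which Smc2 had no peak and took the last rank, and no STAG2 peak at Smc2 reached q 0.01. By fold, the LIN54 direction was the reverse, with both KO values (8.97 and 7.26) above the WT values (6.84, 6.52 and 4.94). The STAG2 ranks overlapped at windows of 250 and 1000 bp, and the LIN54 ranks at 250 bp.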

How the results depend on the processing

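Of 136 alternative values for the counts, spreads and motifs, 110 stayed within 1.5 times of the reported value and 26 did not. With the 20000 best peaks per library, the genes occupied in every library fell to 5 for STAG2-WT, 1 for STAG2-KO, 5 for LIN54-WT and 5 for p130-WT. At q 1e-05 STAG2-WT fell from 5 to 2. STAG2-KO, with 5 in the deposited lists, had 3 at a window of 250 bp and 8 at 1000 bp. Leaving out 1 library gave 5 to 8 for STAG2-WT at q 0.01 (8 without replicate 2), 6 to 8 for STAG2-KO in the deposited lists and 1 to 2 at q 0.01 (8 and 2 without replicate 1).

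For genes whose KO and WT ranks did not overlap, fold in place of rank gave 0 above and 6 below for STAG2, 8 above and 0 below for LIN54, and 1 above for p130. A window of 250 bp gave 1 above for each antibody and 0 below for LIN54. Leaving out 1 library gave 4 to 5 below for STAG2, each of the 4 libraries in turn. Taking the replicate number as a block (same direction in every same-numbered pair) gave 5 below for STAG2 and 5 above for LIN54. The labels do not say that a number marks shared animals or days, and deviations from the group means of same-numbered libraries correlated at 0.121 for STAG2, 0.005 to 0.025 for LIN54 and 0.019 to 0.039 for p130, so the numbers were not taken to pair libraries. E2F matches fell from 2 to 1 promoters in the 250 bases before the start.

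The last rank for genes without a peak was adopted after seeing the data, as the first run had used the mean of the last ranks. Under that mean the same genes were called in every count. The share of all genes with KO above WT moved from 9.32% to 38.5% for STAG2. For p130 it moved from 2.56% to 27.9%, and the share below for LIN54 moved from 4.93% to 13.3%. Against those shares the STAG2 and p130 counts of 2 of 10 are below the background. The mean of the last ranks differs between libraries (14597 to 16749.5), so under that rule genes without a peak in any library count as separated. Shares over genes occupied in every library were also added after seeing the data. Of 85 alternative mean folds of single genes, 84 stayed within 1 SD, Mki67 in LIN54-KO moved to 2.42 at 250 bp, and 11 had no value because a library had no peak in the smaller window. The cause of the other shifts was not tested. The peaks of Mki67 held 7 to 14 fragments at the summit and those of Ncaph 6 to 17, and whether depth accounts for their missing peaks was not tested.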
